A study of Mus musculus with 6 samples.

Results

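The genes described here are 38 mouse genes that are induced by interferons or that carry peptides to MHC class I molecules, chosen by name. Of the 38, 36 had at least 1 probe set of their own on the array, with 53 probe sets among 45101 in all. Ifi44 had none listed, and the 1 probe set annotated to Isg15 also carries the name of another gene and was not used. RNA came from glomeruli, the filtering units of the kidney, isolated with magnetic beads from female mice aged 6 weeks, 1 array per mouse. The 3 Vhl-deleted mice carried a Pod-Cre transgene, in which the podocin promoter drives Cre recombinase in podocytes, the epithelial cells around the glomerular capillaries, and a floxed Vhl gene, and were picked because their urinary albumin did not exceed the mean of their wild-type littermates. The 3 controls were littermates labelled wild-type. The parents of these litters were homozygous for the floxed Vhl allele, and the alleles of the controls and the strain are not given in the sources used here. The other cells of the Vhl-deleted glomeruli keep Vhl.

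Interferons are secreted proteins that signal through cell surface receptors, JAK kinases and STAT proteins. Type I interferons act through the interferon-stimulated response element (ISRE) of their target genes, and interferon-gamma through the gamma-activated site (GAS). The induced genes encode RNA sensors, antiviral proteins, GTPases against intracellular microbes, and the immunoproteasome and TAP transporter that cut and carry peptides for MHC class I. Many cells express a part of this set at rest, and leukocytes express much of it.

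The 4 promoters below show how these elements lie before members on which the results turn. Each is the 250 bases before a RefSeq transcription start in GRCm38.p6, plus strand, 5′ to 3′. Matches to the ISRE core (GAAA, any 2 bases and GAAA again, on either strand) are in capitals. So are matches to the GAS (TTC, any 3 bases and GAA, which reads the same on both strands). B2m lies at chr2:122147437-122147686, Irf1 at chr11:53769764-53770013, Ifit1 at chr19:34640639-34640888 and Igtp at chr11:58199306-58199555.
B2m: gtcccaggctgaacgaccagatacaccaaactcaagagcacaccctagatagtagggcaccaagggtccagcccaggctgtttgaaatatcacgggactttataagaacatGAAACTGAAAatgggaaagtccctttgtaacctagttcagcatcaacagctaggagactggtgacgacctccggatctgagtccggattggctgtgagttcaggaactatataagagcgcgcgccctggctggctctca
Irf1: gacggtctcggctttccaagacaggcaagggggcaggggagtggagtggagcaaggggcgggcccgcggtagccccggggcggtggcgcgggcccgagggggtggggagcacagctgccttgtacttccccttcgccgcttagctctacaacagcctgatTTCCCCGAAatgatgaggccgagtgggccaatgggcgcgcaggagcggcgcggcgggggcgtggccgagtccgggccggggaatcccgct
Ifit1: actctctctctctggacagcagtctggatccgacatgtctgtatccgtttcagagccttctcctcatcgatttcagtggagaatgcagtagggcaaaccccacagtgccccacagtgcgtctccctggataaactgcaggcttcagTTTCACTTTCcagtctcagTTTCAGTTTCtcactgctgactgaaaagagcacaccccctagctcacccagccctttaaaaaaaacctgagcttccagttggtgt
Igtp: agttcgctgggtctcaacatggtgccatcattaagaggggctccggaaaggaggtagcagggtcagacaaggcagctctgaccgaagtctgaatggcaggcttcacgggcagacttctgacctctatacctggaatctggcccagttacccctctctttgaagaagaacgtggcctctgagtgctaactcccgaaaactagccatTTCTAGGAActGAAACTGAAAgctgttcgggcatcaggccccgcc
B2m has 1 ISRE core, GAAACTGAAA, that begins 139 bases before the start. Irf1 has 1 GAS, TTCCCCGAA, at 90 bases. RefSeq gives a second Irf1 start, and the window before it (chr11:53770223-53770472) held neither element. Ifit1 has 2 ISRE cores on the opposite strand, TTTCACTTTC at 104 and TTTCAGTTTC at 85 bases, and Igtp has a GAS at 45 bases followed without overlap by an ISRE core at 34 bases. In RefSeq 30 members had 34 such windows, of which 38.2% held an ISRE core and 17.6% a GAS, against 2.98% and 7.02% of all 32851 windows. The 13 members with an ISRE core were B2m, Bst2, Cxcl10, Gbp2, Gbp3, Ifit1, Ifit3, Igtp, Irgm1, Isg15, Oas1a, Rsad2 and Stat2. A match is a match of letters, and binding was not measured here.

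Values are MAS5 signals, linear intensities that the authors scaled to a trimmed mean of 500 in every array. Changes are differences of log2(signal + 28), Vhl-deleted minus wild-type, with the standard error (SE), and a p is adjusted over all 11159 genes tested. The number of arrays, 3 per group, limits the precision of every value. Vhl itself had signals of 611.5, 618.7 and 605.9 in the Vhl-deleted arrays, against 809.0, 664.8 and 707.4 in the wild-type arrays (log2 change -0.23, limma adjusted p = 0.944), so the groups did not overlap at this probe set. A second, dimmer Vhl probe set gave 233.3, 196.1 and 215.8 in Vhl-deleted arrays, against 227.7, 236.6 and 272.6 in wild-type arrays, and there the groups overlapped. The summed signal of the 9 podocyte markers tested ran from 92154 to 108330 in Vhl-deleted and from 92746 to 126581 in wild-type arrays, with 1 of 9 changes positive (Cdkn1c, 0.48, without overlap). Tubule markers were measured in all arrays: the summed signal of 18 of 18 tubule markers tested ran from 107707 to 181476 in Vhl-deleted and from 41425 to 141897 in wild-type arrays, and its highest value was in Vhl-deleted replicate 3 and its lowest in wild-type replicate 3. In such bulk RNA, fewer cells of a type and less RNA per cell cannot be told apart.

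No member passed the test between Vhl-deleted and wild-type glomeruli. Of 32 members tested, 0 were called by limma, against 0.0807% of all genes (9 of 11159), and the lowest adjusted p among them was 0.944. The median change of the members was 0.11, and 27 of 32 had a positive change, beside a median of 0.00 and 50.9% positive over all genes tested. Single changes ran from -0.19 for Bst2 to 0.37 for Xaf1. At an unadjusted p under 0.05, 1 member was higher, where 2.51% of all genes were, and 0 members were lower, where 2.41% were. The 95% intervals of 28 of the 32 members lay within a change of 1 in either direction, which is a doubling or a halving on this scale, so for these members a larger difference lies outside the interval.

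**Figure D1:**
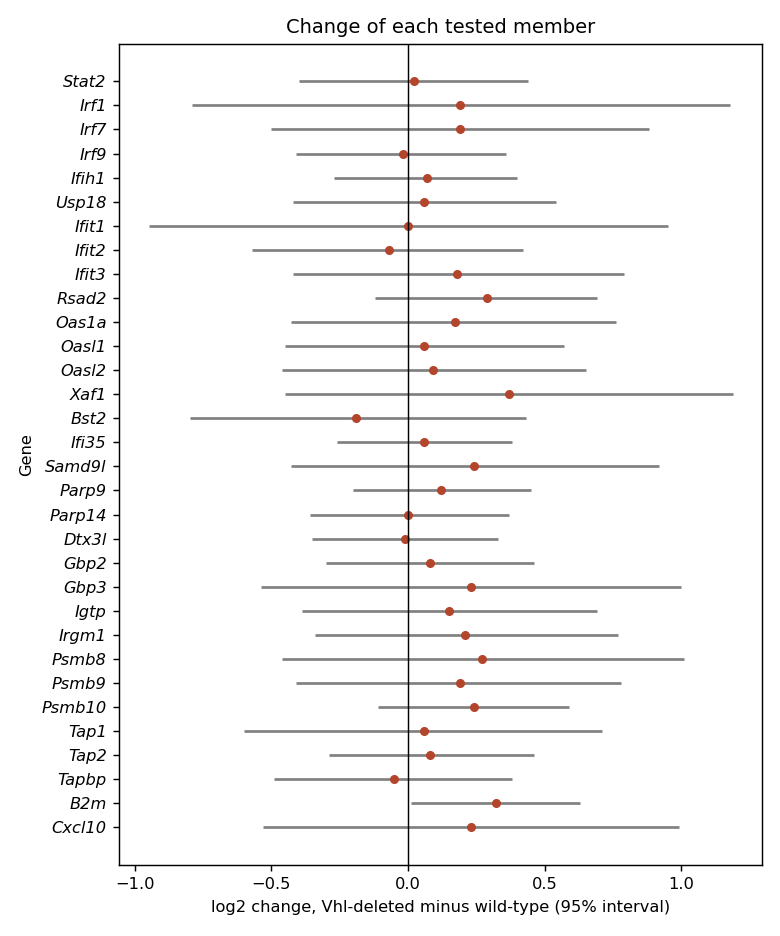
Log2 change, Vhl-deleted minus wild-type, of each of the 32 members tested (points) with its 95% interval (lines), 3 arrays per group. The intervals of all members but B2m cross 0, and the highest change is 0.37.

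One array stood apart in these genes. Vhl-deleted replicate 3 had the highest value of the 6 arrays in 24 of the 32 members (75.0%), where it was highest in 25.9% of all genes tested. Wild-type replicate 3 was highest in 7 members (21.9%) and in 31.2% of all genes, and Vhl-deleted replicate 2 was highest in 1. The mean log2 level of the 32 members was 9.43, 9.56 and 10.05 in Vhl-deleted replicates 1, 2 and 3, against 9.50, 9.46 and 9.73 in wild-type replicates 1, 2 and 3. Without Vhl-deleted replicate 3 the median change was -0.07 and 7 of 32 members had a positive change, and without wild-type replicate 3 the median was 0.18 and 32 of 32 were positive. The positive sign of the median thus rested on Vhl-deleted replicate 3.

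**Figure D2:**
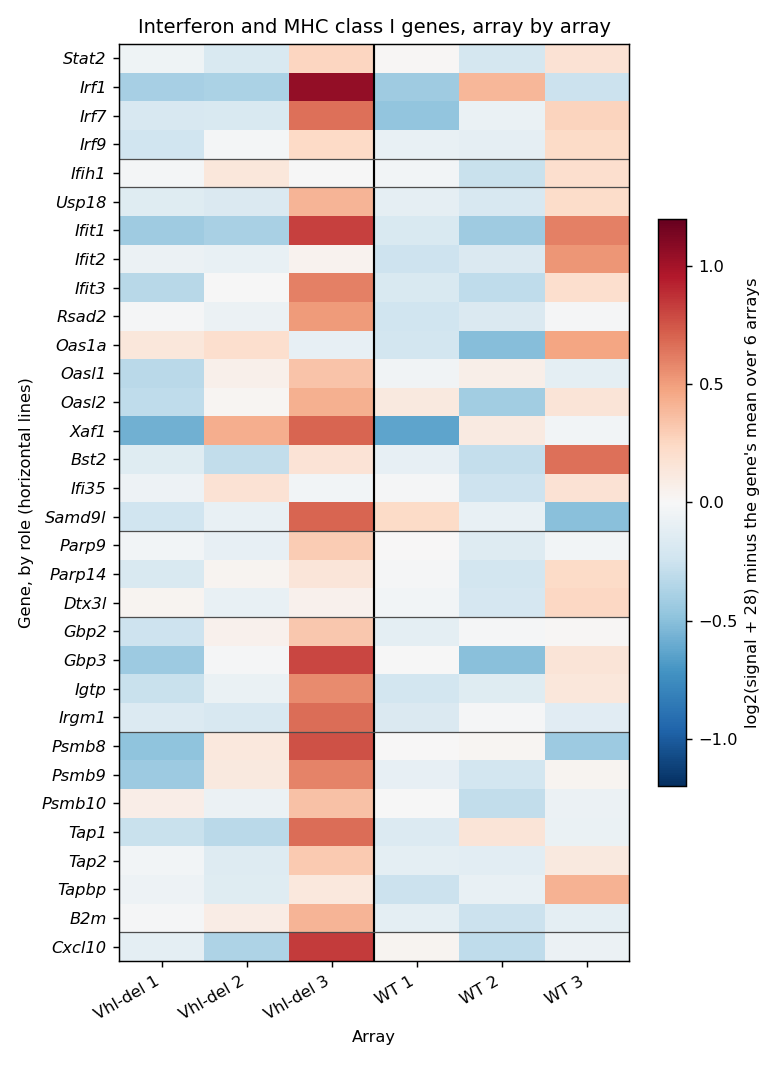
Each row is a tested member, grouped by role, and each column an array, with Vhl-deleted arrays on the left. Colour gives log2(signal + 28) minus the gene's mean over the 6 arrays; the red column is Vhl-deleted replicate 3, the highest array in 24 of 32 rows.

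**Figure D3:**
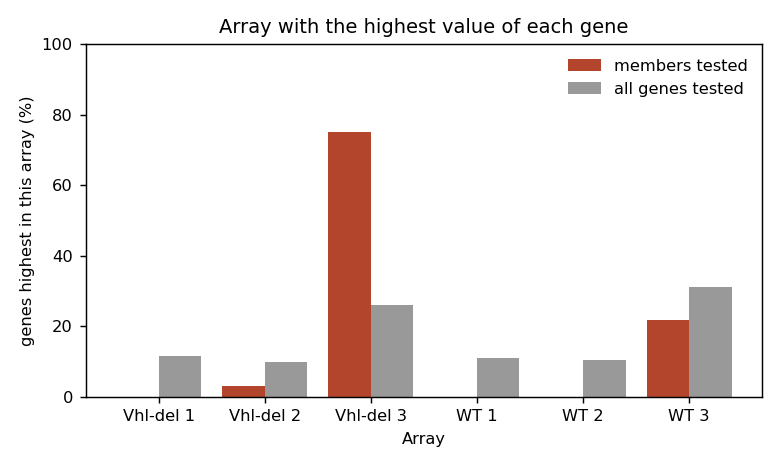
Percent of genes whose highest value among 6 arrays lies in each array, for the 32 members and for all 11159 genes tested. Vhl-deleted replicate 3 takes 75.0% of the members and 25.9% of all genes.

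At the brightest probe set of each, the 4 transcription factors were highest in Vhl-deleted replicate 3, with changes between -0.02 and 0.19. Irf1, a factor that responds rapidly to interferon-gamma and to other stimuli, had signals of 1059, 1073 and 2946 in Vhl-deleted replicates 1 to 3, against 1032, 1857 and 1167 in wild-type replicates 1 to 3 (change 0.19, SE 0.42). Its second highest array was wild-type replicate 2, so the groups overlapped. Irf9, a DNA-binding factor of the type I response, had 764.8, 892.2 and 1079 in Vhl-deleted arrays, against 853.6, 841.5 and 1074 in wild-type arrays (-0.02, SE 0.16). Irf7, the factor that amplifies type I interferon production, reached 496.0 in Vhl-deleted replicate 3 and lay between 210.9 and 371.3 in the other 5 arrays. Stat2, the type I signal transducer, ranged from 211.4 to 304.5 over all 6 arrays (0.02, SE 0.18). A second, dimmer Stat2 probe set was highest in wild-type replicate 3, at 213.4, and read 176.2 in Vhl-deleted replicate 3 (change 0.01). The immediate early genes, transcripts of rapid stimulation such as Fos and Egr1 (12 genes, 12 tested, listed after the values were seen), had a mean log2 level of 11.74, 11.48 and 13.18 in the Vhl-deleted arrays, against 11.17, 13.06 and 11.37 in the wild-type arrays. The 2 arrays highest in that list were also the 2 highest in Irf1, and the part of this stimulation in the result was not tested.

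Among the antiviral effectors 12 of 17 were tested, their median change was 0.08, and 8 were highest in Vhl-deleted replicate 3. Ifit1, which binds foreign RNA caps, had signals of 246.1, 254.7 and 622.8 in Vhl-deleted arrays, against 298.3, 246.4 and 534.6 in wild-type arrays. Its change was 0.00 (SE 0.40), since 1 mouse in each group was high. Ifit3, a related protein gene, showed 535.3, 679.8 and 1049 in Vhl-deleted arrays, against 596.9, 546.9 and 788.6 in wild-type arrays (0.18, SE 0.26), with replicate 3 again the highest of each group. Ifit2 of the same family was highest in wild-type replicate 3, at 1402, and between 810.1 and 995.0 elsewhere. Bst2, tetherin, which holds virions on the cell surface, was likewise highest there, at 884.0, against 441.3 to 615.9 in the other arrays.

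Rsad2, which encodes viperin, an enzyme that makes an antiviral nucleotide, had a change of 0.29 (SE 0.17). Its brightest probe set gave 1735, 1665 and 2514 in Vhl-deleted arrays, against 1475, 1548 and 1736 in wild-type arrays. The groups overlapped there, with wild-type replicate 3 above Vhl-deleted replicates 1 and 2, and without Vhl-deleted replicate 3 the change was 0.10. A second probe set, with 431.4, 456.6 and 637.5 in Vhl-deleted and 344.4, 420.9 and 405.7 in wild-type arrays, had no overlap. At the third probe set the groups overlapped. All 3 Rsad2 probe sets had a positive change, between 0.23 and 0.34. Samd9l, an antiviral protein that also restrains growth of blood cells, had 1731, 1923 and 3348 in Vhl-deleted arrays, against 2415, 1924 and 1437 in wild-type arrays (0.24, SE 0.29). Ifi35, a regulator of innate signalling, had 3236, 3819 and 3308 in Vhl-deleted arrays, against 3345, 2831 and 3813 in wild-type arrays, and was the member highest in Vhl-deleted replicate 2. Its other 2 probe sets had changes of -0.12 and -0.04 against 0.06 here.

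Xaf1, a pro-apoptotic factor, had probe sets that went in opposite directions. One gave 1144, 2335 and 2804 in Vhl-deleted and 1103, 1858 and 1682 in wild-type arrays, and the other 724.3, 256.5 and 206.2 in Vhl-deleted and 610.9, 222.0 and 749.5 in wild-type arrays. The second probe set separated Vhl-deleted replicate 1 and wild-type replicates 1 and 3, at 610.9 or more, from the other 3 arrays, at 256.5 or less, with both genotypes on either side. Usp18, the protease that removes ISG15, Oas1a, Oasl1 and Oasl2, of the oligoadenylate synthetase family, had changes between 0.06 and 0.17. Mx1, which is defective in many laboratory strains, Mx2, Oas2 and the RNA helicase Dhx58 were below the filter on dim probe sets (a signal of about 96.4) and were not tested. No probe set of these 4 exceeded 95.52 in any array.

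Ifih1, the MDA5 sensor of double-stranded RNA, had 955.6, 1068 and 966.8 in Vhl-deleted arrays, against 952.1, 802.3 and 1119 in wild-type arrays (0.07, SE 0.14). The PARP9-DTX3L pair, which modifies histones, and their relative Parp14 had changes of 0.12, -0.01 and 0.00. Parp9 gave 829.2, 790.7 and 1055 in Vhl-deleted arrays, against 849.7, 757.7 and 826.8 in wild-type arrays. Parp14 gave 693.0, 808.7 and 877.5 in Vhl-deleted arrays, against 780.8, 674.3 and 928.3 in wild-type arrays. A second, dim Parp14 probe set below the filter read 75.93, 116.2 and 102.6 in Vhl-deleted and 35.39, 23.17 and 49.43 in wild-type arrays, without overlap, a pattern that the brighter Parp14 probe set did not have.

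The 4 GTPases, which act in defence against intracellular microbes, all had a positive change, between 0.08 and 0.23, and all were highest in Vhl-deleted replicate 3. Irgm1 had 860.6, 843.4 and 1560 in Vhl-deleted arrays, against 856.1, 957.0 and 879.0 in wild-type arrays (0.21, SE 0.24). Igtp had 595.0, 682.4 and 1085 in Vhl-deleted arrays, against 617.9, 651.3 and 797.1 in wild-type arrays (0.15, SE 0.23). In both genes the other 2 Vhl-deleted mice lay within or below the wild-type range. Gbp3 reached 914.4 in Vhl-deleted replicate 3 and lay between 354.2 and 575.6 in the other 5 arrays. Gbp2 had a smaller spread at its brightest probe set, from 463.2 to 700.8 (0.08, SE 0.16). Its second probe set ran from 360.4 to 805.4, with the highest value in Vhl-deleted replicate 3 (0.01, SE 0.29). Cxcl10, the chemokine that draws activated T cells, had 140.4, 113.5 and 298.7 in Vhl-deleted arrays, against 158.5, 120.0 and 146.0 in wild-type arrays, again with 1 high mouse (0.23, SE 0.32).

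B2m, the invariant light chain of every MHC class I molecule, was the 1 tested member whose groups did not overlap, where 5.04% of all genes were higher in this way and 5.64% lower (0 members). Its signals were 16967, 18158 and 22730 in Vhl-deleted arrays, against 15818, 14359 and 15828 in wild-type arrays. The change was 0.32 (SE 0.13, 95% interval 0.01 to 0.63), with an unadjusted limma p of 0.0443 and an adjusted p of 0.944, so it did not pass. A second B2m probe set read 16025, 15759 and 21147 in Vhl-deleted and 13083, 13868 and 13859 in wild-type arrays, also without overlap, with a change of 0.36. Without Vhl-deleted replicate 3 the change was 0.20, and 1 in 32 members without overlap is a share near that of all genes.

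The immunoproteasome subunits Psmb8, Psmb9 and Psmb10, which replace the standard catalytic subunits under interferon, had changes of 0.27, 0.19 and 0.24. Psmb8 gave 384.2, 603.4 and 955.1 in Vhl-deleted arrays, against 551.0, 557.7 and 398.1 in wild-type arrays, so the Vhl-deleted mice included both the lowest and the highest value. Psmb10 gave 1077, 963.2 and 1306 in Vhl-deleted arrays, against 1013, 822.2 and 967.5 in wild-type arrays. Tap1, a subunit of the peptide transporter whose RefSeq promoter window overlaps that of Psmb9 on the other strand, had 262.5, 251.7 and 529.6 in Vhl-deleted arrays, against 284.8, 361.6 and 303.0 in wild-type arrays. At this Tap1 probe set the other 2 Vhl-deleted mice were below the wild-type ones. A dim Tap1 probe set below the filter read 42.81, 33.19 and 31.94 in Vhl-deleted and 22.23, 3.583 and 24.17 in wild-type arrays, without overlap. At the remaining dim Tap1 probe sets the groups overlapped. Tap2, the other subunit, was at 0.08 and Tapbp, tapasin, which holds class I molecules at the transporter, at -0.05. Tapbp had 3111, 2942 and 3555 in Vhl-deleted arrays, against 2726, 3066 and 4365 in wild-type arrays, and was highest in wild-type replicate 3.

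**Figure D4:**
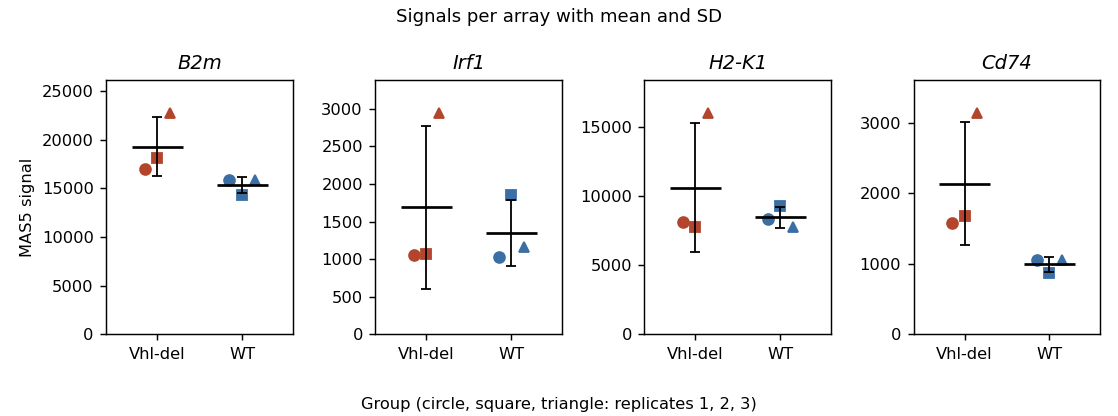
MAS5 signals of B2m and Irf1 and of 2 genes outside the member list, the class I heavy chain H2-K1 and the class II invariant chain Cd74, with each array as a point and the mean and SD per group. Vhl-deleted replicate 3 (triangle) is the highest array in all 4, and the groups do not overlap in B2m and Cd74.

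Other genes of the pathway gave 0 calls in either direction in each list. The class I heavy chains, which pair with B2m and whose near-identical sequences can share probes, had a median change of 0.16 over 6 tested, with H2-M3 at 0.22 and Cd1d1, a lipid-presenting relative, at -0.31. H2-K1 and H2-D1, the classical heavy chains, are given because of their values. H2-K1 gave 8107, 7767 and 16036 in Vhl-deleted arrays, against 8341, 9266 and 7815 in wild-type arrays, and H2-D1 gave 10016, 10205 and 18441 in Vhl-deleted arrays, against 9312, 10627 and 10128 in wild-type arrays. Both were thus at about the wild-type level in 2 Vhl-deleted mice and far above it in the third. Of 12 loading and standard proteasome partners tested, 5 had a positive change (median -0.01), with Abcb9, a lysosomal relative of the transporter, at -0.39 without overlap (limma adjusted p = 0.944) and Psme3 at -0.20. All 6 interferon genes with a probe set (Ifna1, Ifna2, Ifna4, Ifna5, Ifnb1 and Ifng) were below the filter, and the highest single value among them was 110.7.

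Of 16 receptors, kinases and regulators tested, 11 had a positive change (median 0.07). Irf8, a factor of myeloid and B cells, had 491.9, 544.7 and 749.8 in Vhl-deleted arrays, against 349.8, 350.7 and 337.8 in wild-type arrays, a change of 0.72 (SE 0.17) without overlap and with a limma adjusted p of 0.633. Among 11 sensors and adaptors 5 had a positive change (median -0.05), with the DNA-sensing adaptor Sting1 at 0.36 and the RNA-activated kinase Eif2ak2 at 0.33. The adaptor gene Ticam1, named after its values were seen, was the 1 of these without overlap, with 183.8, 206.3 and 205.4 in Vhl-deleted arrays, against 241.3, 228.4 and 224.7 in wild-type arrays (-0.20, limma adjusted p = 0.944). Among 33 other interferon-induced genes 21 had a positive change (median 0.09), with Ifi47, a GTPase related to Igtp, at 0.49 and Ifi27, named after its values were seen, at 0.16, both without overlap (limma adjusted p = 0.944 each). In that list the highest array was Vhl-deleted replicate 3 for 12 genes and wild-type replicate 3 for 13, beside 24 and 7 of the 32 members; the difference was not tested.

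Leukocyte markers lay beside these values as follows. Of 25 listed, 12 were tested, and their summed signal ran from 7842 to 11706 in Vhl-deleted arrays and from 4922 to 9047 in wild-type arrays. The sum was highest in Vhl-deleted replicate 1, was 10907 in Vhl-deleted replicate 3 and was lowest in wild-type replicate 3. Lyz1 and Lyz2 made up 4416 and 2336 of the sum in Vhl-deleted replicate 1. The mean log2 level of the 12 was 9.19, 8.89 and 9.26 in Vhl-deleted replicates 1 to 3. It was 9.04, 8.83 and 8.38 in wild-type replicates 1 to 3. By this mean Vhl-deleted replicate 3 was the highest array, and it was highest in 6 of the 12. Among the 32 members Vhl-deleted replicate 3 was highest in 24, and Vhl-deleted replicate 1 was highest in 0 and lowest in 8. A link between the members and these markers was not tested. Of the 12 changes 11 were positive (median 0.39), and Ptprc (0.67), Csf1r (0.47) and Cd14 (0.15) were higher without overlap, while 0 passed over all genes. The defining T and B cell markers Cd3e, Cd3g, Cd8a, Cd4, Cd79a, Cd79b and Ms4a1 were below the filter. Of 7 MHC class II genes listed, which interferon-gamma also induces and which antigen-presenting cells express, 5 were tested. Ciita was below the filter and H2-DMb1 had no probe set of its own. The 5 summed to between 4816 and 8707 in Vhl-deleted arrays and between 2873 and 3767 in wild-type arrays. All 5 had higher values without overlap, where 5.04% of all genes had (changes from 0.61 to 1.02, limma adjusted p from 0.642 to 0.941, 0 passed). The highest sum was in Vhl-deleted replicate 3. With the leukocyte marker mean as a covariate the members' median change was 0.13 and 0 members passed, as 0 had without it. That fit concerns the difference between the groups and not the array-to-array pattern. The part of leukocytes in that pattern was not tested, and the sum of the tubule markers, given above, was highest in Vhl-deleted replicate 3.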

How the data were processed

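The deposited intensities are linear MAS5 values; MAS5 is named without a version in the submitters' processing notes. The values show that the authors scaled each array to a trimmed mean of 500, leaving out 2% at either end. Detection calls were not used. No 2 arrays held identical values. Groups were taken from the labels, which call the arrays biological replicates.

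Probe sets were named from the array annotation, with 34945 of 45101 having 1 symbol, 932 several and 9160 none, and 34741 of the first were matched by Entrez number to RefSeq. Probe sets with several symbols were left out. Values were taken as log2(signal + 28), the pseudocount being the 25th percentile of all values, which understates changes of dim genes. Probe sets in the upper 50% by mean log2 value were kept, and each gene was represented by its brightest such probe set. The genotypes were tested by limma (version 3.58.1, under R 4.3.3; lmFit, eBayes with intensity trend), with Benjamini-Hochberg adjustment over 11159 genes at a threshold of 0.05. The method was checked on simulated data with independent noise in each gene and added changes larger than any seen in the members. That check did not cover noise shared by the genes of an array, nor changes as small as those of the members.

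The members, lists and tests were chosen with earlier results of these data known. Every member is accounted for, with values in every array for members that passed or whose groups did not overlap and for the 2 brightest of each role; Ifit1, Ifit3, Rsad2, Xaf1, Psmb8, Psmb10 and Tap1 were added after their values were seen. Alternatives changed the scaling, pseudocount, filter, probe set choice, variance model, array weights, replicate block and marker covariates, and left out each array in turn.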

Additional observations from a re-analysis of the deposited data

How the results depend on the processing

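In all 19 alternatives run, 0 members were called by limma, and the median change of the members lay between 0.03 and 0.14 in the 13 that kept all arrays and between -0.07 and 0.23 when an array was left out. The negative value was that without Vhl-deleted replicate 3. With median scaling the median of all genes moved to -0.05 and that of the members to 0.06. The lowest adjusted p of a member over all alternatives was 0.426, with the tubule covariate. The number of all genes called was 14 with 4 times the pseudocount, 33 with array weights, 35 with the tubule covariate, 5 with the leukocyte covariate and 1 with the replicate block, against 9, and ran from 1 to 12 with an array left out. The replicate numbers did not pair the arrays: correlations of the deviations of same-numbered arrays were -0.02, -0.41 and -0.51, no array correlated best with its own number, and the block changed no call of a member. Vhl-deleted replicate 3 was highest in 23 to 25 members over 7 settings of scaling, pseudocount, filter and probe set, chosen after seeing the data, except in the brightest 30% of probe sets, where it was highest in 18 of 26. The change of B2m was 0.21 with quantile normalization.

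Changes turned their sign without a call on either side, among them the highest one, Xaf1 (0.37), and those of Psmb8 (0.27), Samd9l (0.24) and Cxcl10 (0.23). For Xaf1 the sign turned only where its 2 probe sets, with changes of 0.37 and -0.44, were averaged. The cause of the turns was otherwise not tested. With quantile normalization the sign turned for Stat2 (-0.02) and Ifit1 (-0.03). With median scaling this held for Stat2 (-0.03), Ifit1 (-0.05) and Parp14 (-0.05). With array weights this held for Irf1 (-0.14), Ifit1 (-0.06), Ifit2 (0.10), Oasl1 (-0.13), Oasl2 (-0.04), Samd9l (-0.14), Parp14 (-0.00), Dtx3l (0.07), Gbp2 (-0.03), Psmb8 (-0.14), Psmb9 (-0.02), Tap1 (-0.15) and Tapbp (0.07). With the tubule covariate this held for Irf1 (-0.04), Irf9 (0.02), Ifit2 (0.08), Oasl1 (-0.02), Dtx3l (0.07), Tap1 (-0.07) and Tapbp (0.05). With the leukocyte covariate this held for Irf1 (-0.06), Irf9 (0.10), Ifit2 (0.24), Oasl1 (-0.00), Bst2 (0.08), Samd9l (-0.18), Dtx3l (0.10), Tap1 (-0.12), Tapbp (0.18) and Cxcl10 (-0.01). With the smaller pseudocount this held for Ifit1 (-0.00). With the mean of a gene's probe sets this held for Xaf1 (-0.03), Ifi35 (-0.03) and Dtx3l (0.05). With an array left out, changes that turned their sign in at least 1 fit ran from -0.10 to 0.11 for Stat2, -0.29 to 0.44 for Irf1, -0.10 to 0.37 for Irf7, -0.15 to 0.09 for Irf9, -0.05 to 0.18 for Ifih1, -0.13 to 0.18 for Usp18, -0.41 to 0.30 for Ifit1, -0.21 to 0.17 for Ifit2, -0.07 to 0.39 for Ifit3, -0.05 to 0.45 for Oas1a, -0.10 to 0.23 for Oasl1, -0.09 to 0.27 for Oasl2, -0.38 to 0.10 for Bst2, -0.05 to 0.16 for Ifi35, -0.05 to 0.42 for Samd9l, -0.00 to 0.20 for Parp9, -0.11 to 0.12 for Parp14, -0.11 to 0.11 for Dtx3l, -0.06 to 0.22 for Gbp2, -0.11 to 0.51 for Gbp3, -0.10 to 0.32 for Igtp, -0.07 to 0.36 for Irgm1, -0.04 to 0.59 for Psmb8, -0.06 to 0.45 for Psmb9, -0.27 to 0.23 for Tap1, -0.05 to 0.18 for Tap2, -0.20 to 0.14 for Tapbp and -0.13 to 0.48 for Cxcl10. The number of arrays and the brightness of the probe sets limit what can be seen: the 4 dim members cannot be compared.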
